A study of Homo sapiens with 24 samples.

Results

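The response of SW1783 cells to the high dose of the ethanol extract of Schisandrae Fructus (EESF) was compared, gene by gene, with their response to the high dose of the water extract (WESF). The measure was the log2 change with EESF against its own vehicle minus the log2 change with WESF against its own vehicle, here called the difference between the extracts. The comparison used 12 of the 24 RNA-seq libraries of the study, namely those of the 2 high doses and the 2 vehicles, with 3 libraries per group. SW1783 is an established human astrocytoma cell line, and Schisandrae Fructus is the dried fruit of Schisandra chinensis, used as a herbal medicine. The study set extracts made with hot water and with aqueous ethanol side by side to find where their activities differ, with attention to oxidative phosphorylation (OXPHOS). The cells were treated for 24 h, with WESF at 500 µg/mL or DMSO alone (Vehicle A) in batch A, and with EESF at 310 µg/mL or DMSO alone (Vehicle B) in batch B. Extract and batch therefore cannot be told apart except through each batch's own vehicle, and the high doses were not the same concentration. In the study's preliminary cytotoxicity screen the WESF dose was not toxic, whereas the EESF dose matched a partly inhibitory concentration. The study describes both as the highest tolerable doses, and the part of toxicity in the results was not tested. The labels give no more than replicate numbers, so p-values measure the spread between these libraries, which may be technical.

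The vehicle libraries of the 2 batches went together by replicate number. In 5157 abundant genes (a mean of at least 1000 counts), same-numbered libraries of Vehicle A and Vehicle B deviated from their group means together, with correlations across genes of 0.55 to 0.85, against -0.74 to 0.05 for vehicles of different numbers (for Vehicle B and EESF, different numbers reached 0.55). Once the mean difference of each gene between the batches was removed, the variance between same-numbered vehicles was 1.05 times that of counting error, whereas for same-numbered libraries of WESF and EESF it was 5.5 times. Beyond a batch difference shared by the 3 pairs, same-numbered vehicles thus differed by about the sampling noise, and they are counted here as 3 vehicle samples, each measured in both batches, although the test of the difference takes the 6 libraries as separate. The labels do not say whether they come from the same RNA. If they do, the changes with WESF and with EESF share their controls, and the vehicles show how the measurement differed between batches but not how the cultures did.

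Library totals were 26447834 to 28461841 expected counts for Vehicle A, 20731749 to 24692309 for WESF, 18727797 to 20465712 for Vehicle B and 29659110 to 32567395 for EESF. Levels are given as CPM, the counts scaled to a common library size. Vimentin (VIM), CD44, GJA1, SOX9 and the glutamate transporter SLC1A3 were present in the 4 groups, while the astrocyte markers GFAP, S100B, AQP4 and ALDH1L1 were at or near 0, with at most 10, 4, 1 and 4 counts in any library. The summed level of the 11 astrocyte markers, of which 6 were tested and VIM was the most abundant, was 7856 to 8015 CPM in Vehicle A and 6596 to 6862 with WESF, against 7986 to 8203 in Vehicle B and 7394 to 7636 with EESF. NES, nestin, changed by -1.22 with WESF and by -0.46 with EESF. The difference of 0.76 was called (adjusted p = 0.0128), a call lost with counts thinned to equal depth (0.62, adjusted p = 0.0737). NES was the called gene of 9 tested genes of astrocyte and neural stem identity, against 3.88% of all genes called. Of these 9 genes, 4 had differences above 0 and 5 below 0. The astrocyte label thus rests on part of the marker list. AIF1, P2RY12 and TYROBP of microglia, DCX of immature neurons, and MOG and SOX10 of oligodendrocyte cells were at 0. Other markers of these cells were present: CD68, a lysosomal protein, had group means of 181, 221, 200 and 268 CPM in Vehicle A, WESF, Vehicle B and EESF, PTPRC 10.1, 2.11, 9.78 and 1.87, CSF1R 3.63, 1.45, 3.55 and 1.81, and MBP 6.78, 12.5, 6.57 and 9.59. None of these 4 was called for the difference between the extracts. The summed level of 7 neuron markers, of which 5 were tested and DCX and STMN2 were at or near 0, was 162 to 165.8 CPM in Vehicle A and 78.91 to 86.52 with WESF, against 163.7 to 171.5 in Vehicle B and 99.06 to 108.3 with EESF. Its most abundant tested gene was TUBB3, a tubulin, whose difference was 0.46 ± 0.0937 (SE, adjusted p = 0.00239). SNAP25 differed by 0.57, while SYT1 and MAP2 had differences of -0.27 and -0.48 (adjusted p = 0.0956 and 0.0847). The summed level of 8 fibroblast markers, all tested and led by COL1A1, was 6145 to 6413 CPM in Vehicle A, 5356 to 5660 with WESF, 6106 to 6402 in Vehicle B and 5710 to 5949 with EESF. In bulk RNA, fewer cells of a kind and less RNA per cell cannot be told apart, and the part of such markers in the results below was not tested.

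Cells meet chemical stress with a few well-known programmes. Shortage of amino acids, oxidants or misfolded proteins activate kinases that favour translation of ATF4, which switches on genes of amino acid supply and growth arrest. NF-kappa-B and AP-1 drive cytokines and prostaglandin synthesis, heat shock factor drives chaperones, and SREBP2 drives cholesterol synthesis and uptake when sterols run low. In astrocytes these programmes accompany reactive and inflammatory states.

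Of 13376 protein-coding genes tested, 519 (3.88%) differed between the extracts at an adjusted p under 0.05 and a fold beyond 1.5, by edgeR's quasi-likelihood test of the interaction. Of these, 285 (2.13%) were higher with EESF and 234 (1.75%) lower. The same rule called 3216 genes (24.0%) with WESF against Vehicle A, 1447 up (10.8%) and 1769 down (13.2%). It called 2352 (17.6%) with EESF against Vehicle B, 1102 up (8.24%) and 1250 down (9.35%). As a description, since the changes may share their controls, most of the 519 genes moved further with WESF: 396 had the larger absolute change with WESF and 123 with EESF. Among the 285 genes higher with EESF, 164 had a negative change with both extracts and 20 a positive one, and the remaining 101 had a negative change with WESF and a positive one with EESF. Among the 234 lower genes, 113 had a positive change with both extracts and 26 a negative one, and 95 had a positive change with WESF and a negative one with EESF. Counting only changes that were themselves called, 131 of the higher genes were called down with WESF alone and 90 of the lower genes were called up with WESF alone. With EESF alone, 38 of the higher genes were called up and 28 of the lower genes were called down. Neither change was called for 49 of the higher and 64 of the lower genes.

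Without a limit on the fold, 3481 genes (26.0%) passed an adjusted p under 0.05, of which 1705 (12.7%) were higher and 1776 (13.3%) lower with EESF. The responses of the 3 EESF libraries did not overlap those of the 3 WESF libraries for 518 of the 519 called genes, against 7379 (55.2%) of all genes tested. Vehicle B against Vehicle A gave 0 genes called by edgeR (0.00%), 350 (2.62%) with an unadjusted p under 0.05, and 1 call by DESeq2. Of the 519 genes, 30 (5.78%) had vehicles that differed by more than the fold limit in their estimates and 49 (9.44%) an unadjusted vehicle p under 0.05, against 218 (1.63%) and 350 (2.62%) of all genes. With the replicate number as a block over the 6 vehicle libraries alone, 478 of 13001 genes (3.68%) differed between the vehicles at an adjusted p under 0.05, by a median of 0.10 on the log2 scale, and 17 (0.131%) were called. Of the 519 genes, 20 were among the 478 and 6 among the 17. The same block over the vehicles in the fit of the 12 libraries gave 541 calls for the difference, of which 513 were among the 519. In that fit the spread between same-numbered vehicle libraries is pooled with that between treated cultures, so its p-values may be too small. The count was 729 without EESF replicate 1, the library that moved it most.

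**Figure D1:**
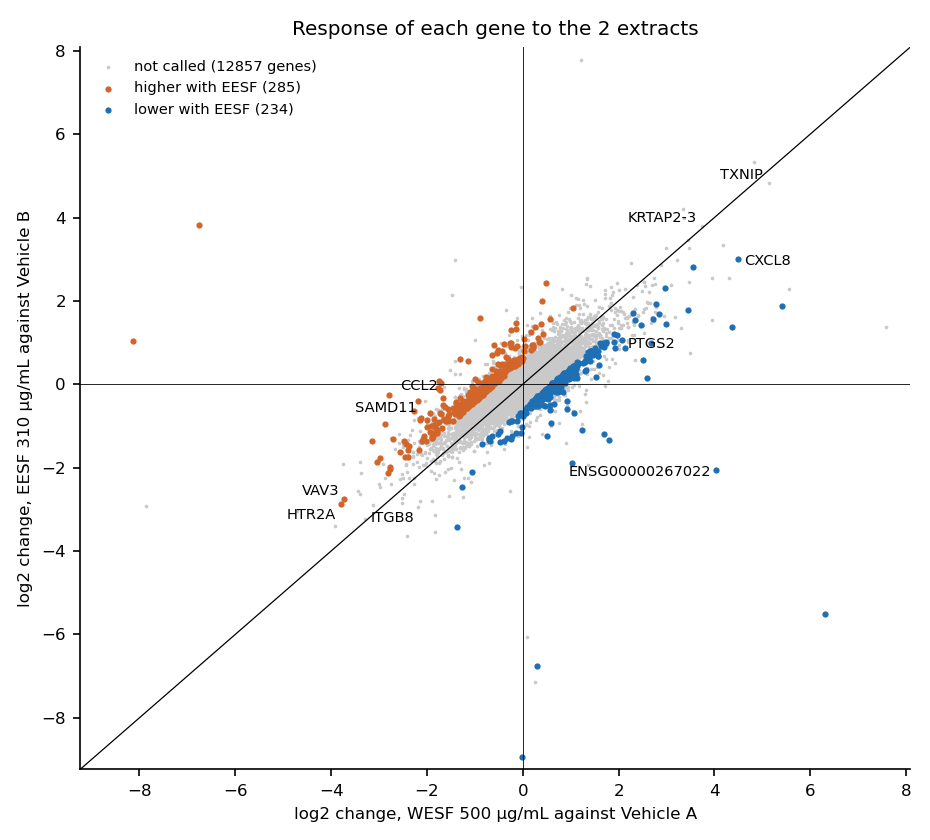
Log2 change of each of the 13376 genes with WESF against Vehicle A (x axis) and with EESF against Vehicle B (y axis). Points on the diagonal changed alike, 285 genes called higher with EESF lie above it and 234 called lower lie below it, and TXNIP, KRTAP2-3 and ITGB8 lie near it, while CXCL8, VAV3 and HTR2A, which also changed strongly with both extracts, lie off it.

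Part of the genes of inflammation rose further with WESF. On the list of inflammatory cytokines and NF-kappa-B targets, 28 genes were tested, and 6 were called lower and 1 higher with EESF. At an adjusted p under 0.05 without the fold limit 7 were lower and 4 higher, and 12 of the 28 differences were above 0. Over all genes 1.75% were called lower and 2.13% higher, and 13.3% and 12.7% at an adjusted p under 0.05, so the 4 higher genes are near the share of all genes. CXCL8, the chemokine that attracts neutrophils (chr4:73740519-73743716, GRCh38), stood at 2.57, 3.15 and 3.26 CPM in Vehicle A and at 63.8, 71.1 and 67.0 with WESF. In Vehicle B it stood at 2.71, 2.25 and 3.29 CPM and with EESF at 22.6, 19.9 and 23.9. Both extracts raised it in each library and the EESF libraries stayed below all WESF libraries, a difference of -1.48 ± 0.188 (SE, adjusted p = 9.33e-05). PTGS2, the inducible cyclooxygenase of prostaglandin synthesis (chr1:186671791-186680922), was at 80.8, 81.8 and 88.0 CPM in Vehicle A and at 362.1, 342.1 and 350.4 with WESF, and at 82.1, 86.7 and 90.7 in Vehicle B and 186.9, 173.1 and 186.2 with EESF. It rose by 2.07 with WESF and by 1.07 with EESF on the log2 scale, and the difference had a standard error of 0.0716 and an adjusted p of 6.75e-07, with no overlap between the extracts.

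NFKBIZ, a nuclear cofactor of NF-kappa-B, rose by 0.97 with WESF and changed by 0.16 with EESF (adjusted p = 0.225). It was at 7.08, 7.27 and 5.86 CPM in Vehicle A and at 14.3, 12.7 and 12.7 with WESF, whereas Vehicle B gave 7.63, 5.77 and 6.35 and EESF 7.86, 7.31 and 6.99. The EESF libraries lay near their vehicle and below the WESF libraries, with a difference of -0.81 ± 0.154 (adjusted p = 0.00167). The cytokines IL1B, IL6 and LIF were the other called members, with differences of -0.66, -0.72 and -0.71. CXCL1, CXCL2 and CXCL3 had fitted differences of -0.66, -0.65 and -0.74 with adjusted p-values of 0.501, 0.272 and 0.266. CCL2, the monocyte chemokine (chr17:34255274-34257208), went the other way: it was at 10.96, 9.81 and 10.9 CPM in Vehicle A and at 3.66, 2.54 and 3.65 with WESF, against 10.29, 10.98 and 10.02 in Vehicle B and 7.30, 8.10 and 9.26 with EESF. Its levels fell in each treated group, least with EESF, and the difference was 1.33 ± 0.167 (adjusted p = 8.05e-05), or 0.64 against the low doses (adjusted p = 0.0301). The median difference of the 28 genes was -0.13, against 0.02 over all genes tested.

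The promoters of these genes were searched for letters close to the NF-kappa-B motif, GGNNTTTCC on both strands. It was found in 14 of the 23 list genes that matched the RefSeq promoter table (60.9%), within 250 bases before the start, and in 5.48% of all 27305 promoters. Windows from CXCL8 (chr4:73740448-73740516, plus strand, match 91 bases before the first listed start) and NFKBIZ (chr3:101827740-101827806, plus strand, 222 bases before it) are shown for these called genes, with the match in capitals, on GRCh38.p14.
CXCL8: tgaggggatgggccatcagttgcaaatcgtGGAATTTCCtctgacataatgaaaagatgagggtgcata
NFKBIZ: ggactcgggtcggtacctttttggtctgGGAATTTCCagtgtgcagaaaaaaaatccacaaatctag
A match describes the letters of the window and is not a measured binding site.

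Part of the genes of the ATF4 programme rose with both extracts, and further with WESF. Of 28 tested, 21 were called up with WESF and 16 with EESF, against 10.8% and 8.24% of all genes. The median changes of the list were 0.93 and 0.68. For the difference, 17 were lower and 1 higher with EESF at an adjusted p under 0.05, and 5 were called lower, against 13.3%, 12.7% and 1.75% of all genes. DDIT4, an inhibitor of mTORC1 signalling (chr10:72273919-72276036), was at 68.6, 61.4 and 65.8 CPM in Vehicle A and at 232.8, 251.5 and 248.7 with WESF, and at 68.0, 58.7 and 62.6 in Vehicle B and 121.0, 130.7 and 129.9 with EESF. The vehicles overlapped, the EESF libraries lay above them and the WESF libraries higher still, and the difference was -0.89 ± 0.0821 (adjusted p = 9.49e-06). CTH, which makes cysteine from cystathionine, rose from 6.53, 6.73 and 6.63 CPM to 21.1, 21.5 and 20.7 with WESF and from 6.40, 6.79 and 7.07 to 13.4, 12.7 and 12.1 with EESF. Its difference was -0.75 ± 0.103 (adjusted p = 1.64e-04). ATF3, a stress-induced repressor, rose from 2.90, 2.90 and 2.91 CPM to 10.5, 9.18 and 9.35 with WESF and from 2.41, 2.96 and 2.78 to 5.89, 5.37 and 4.98 with EESF.

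Other members gave the same order with smaller differences. ALDH1L2, a mitochondrial folate enzyme, and CHAC1, which degrades glutathione, had differences of -0.68 and -0.62 and were called. SESN2, VLDLR and SLC7A11, the cystine transporter, had differences of -0.55, -0.55 and -0.52, and TRIB3 and ASNS, asparagine synthetase, -0.42 and -0.43. All of these passed an adjusted p under 0.05. ATF4 itself rose by 0.74 with WESF and 0.52 with EESF (difference -0.22, adjusted p = 0.0325). DDIT3, which encodes CHOP, had a difference of 0.14 (adjusted p = 0.376), PYCR1 of proline synthesis 0.02 (adjusted p = 0.858), and CEBPB of 0.35 was the member that passed in the opposite direction (adjusted p = 0.018).

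A window of the ATF3 promoter is shown because ATF3, a called gene of the list, holds TGATGNAA, the letters close to the ATF4 and C/EBP element (chr1:212565186-212565253, plus strand, 191 bases before the start). The letters were in 3 of 22 list promoters (13.6%) and in 3.19% of all promoters.
ATF3: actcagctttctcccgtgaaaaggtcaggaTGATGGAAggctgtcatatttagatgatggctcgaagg

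**Figure D2:**
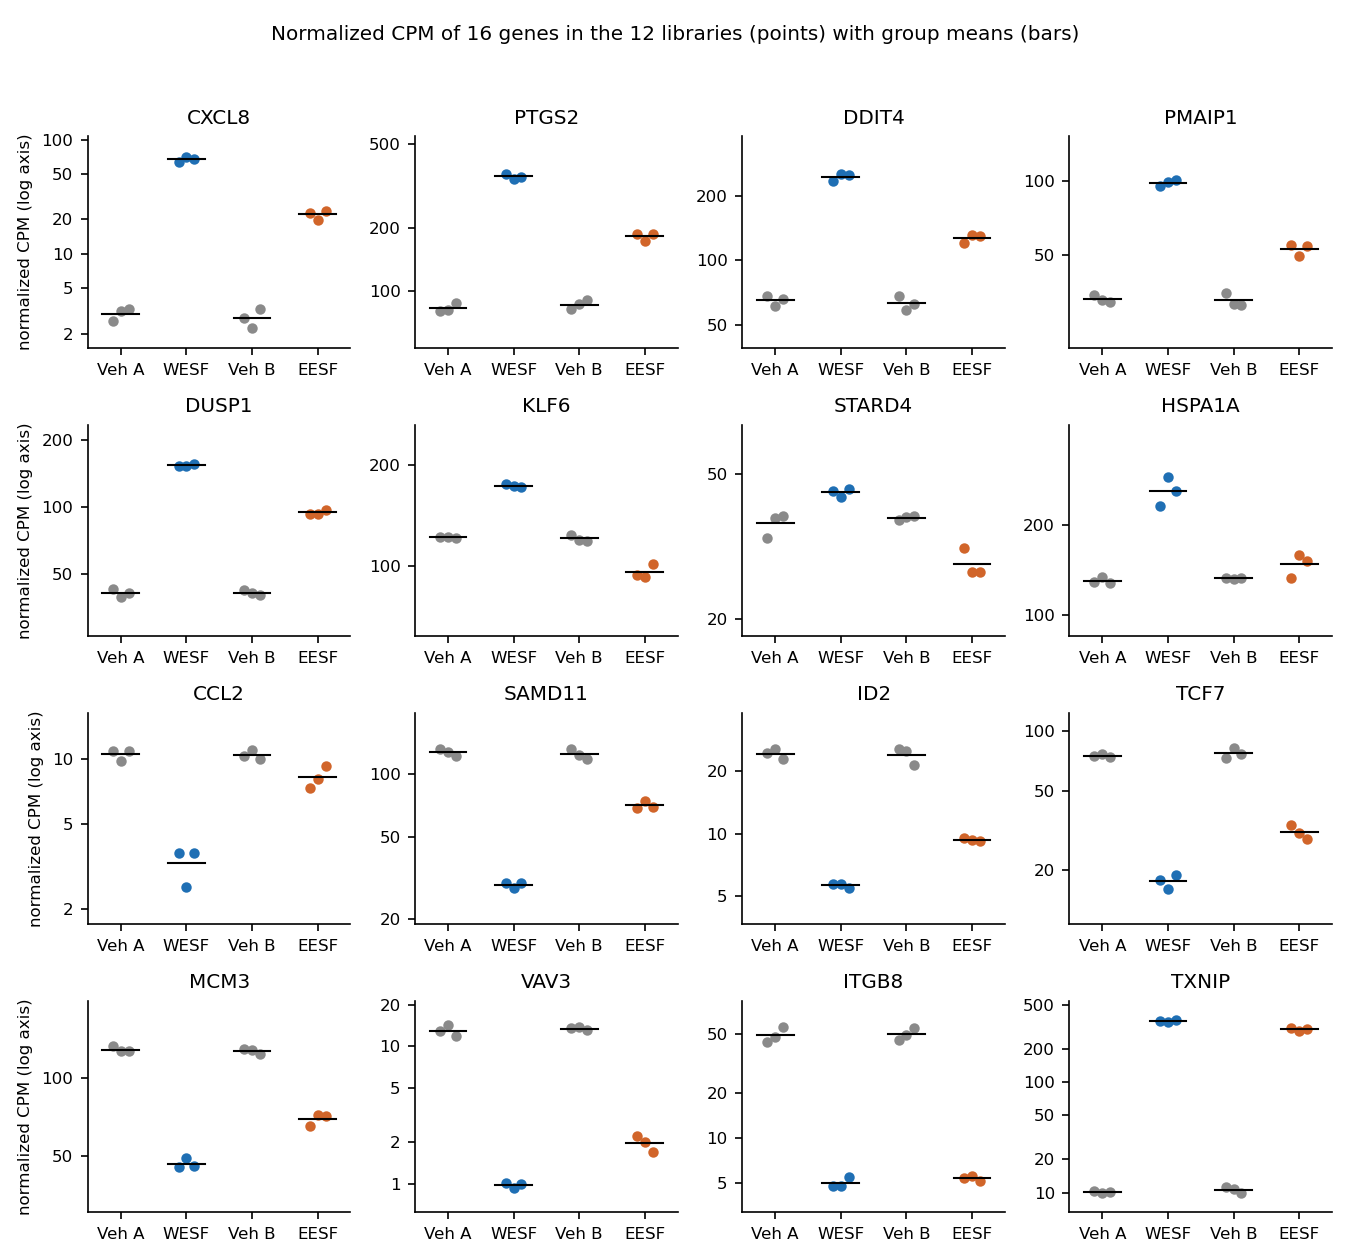
Normalized CPM (log axis) of 16 genes in each of the 12 libraries, with bars at the group means. The 2 vehicles lie together in each panel, the WESF libraries lie above the EESF libraries for CXCL8, PTGS2, DDIT4, PMAIP1, DUSP1, KLF6, STARD4 and HSPA1A and below them for CCL2, SAMD11, ID2, TCF7, MCM3 and VAV3, and those of ITGB8 overlap.

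Part of the immediate early genes had lower values with EESF. On the list of AP-1 and immediate early genes, 24 were tested. Of these, 9 were lower and 3 higher with EESF at an adjusted p under 0.05, against 13.3% and 12.7% of all genes. The 3 higher genes are thus near the share of all genes. Past the fold limit 5 were called lower and 1 higher, against 1.75% and 2.13% of all genes. KLF6, a zinc finger factor (chr10:3775996-3785281), was at 122.4, 122.4 and 121.1 CPM in Vehicle A and at 176.2, 172.7 and 171.7 with WESF, but at 124.0, 119.6 and 118.9 in Vehicle B and 94.2, 92.6 and 101.2 with EESF. It rose with WESF and fell with EESF in each library, and the difference was -0.84 ± 0.0608 (adjusted p = 6.75e-07), or -0.30 against the low doses (adjusted p = 0.00368). FOS and FOSB, subunits of AP-1, had differences of -0.76 and -0.76. The FOS call was lost without WESF replicate 1 (-0.56, adjusted p = 0.0633), and that of FOSB on leaving out any of 6 libraries and with counts thinned to equal depth. EGR1 ranged more: it was at 141.9, 160.7 and 163.6 CPM in Vehicle A, at 179.8, 72.3 and 103.0 with WESF, at 147.9, 174.4 and 177.9 in Vehicle B and at 71.5, 57.6 and 67.5 with EESF. One WESF library was above all of Vehicle A and another near the EESF level, and the EGR1 difference of -0.96 ± 0.288 had an adjusted p of 0.0221. The EGR1 difference was -0.22 against the low doses (adjusted p = 0.66), and its call was also lost by DESeq2 (adjusted p = 0.0679), with the replicate block within each batch (adjusted p = 0.0653) and without EESF replicate 2 or Vehicle B replicate 2. EGR3, a relative of EGR1, was the gene called higher, at 0.64 (adjusted p = 0.0222). ATF3, above, was the other gene called lower.

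DUSP1, a phosphatase that switches off MAP kinases (chr5:172768096-172771195), rose from 42.6, 39.3 and 40.9 CPM to 153.0, 152.0 and 156.0 with WESF, and from 42.1, 41.0 and 40.1 to 92.6, 93.1 and 96.7 with EESF. The EESF libraries lay between the vehicles and WESF, and the difference was -0.71 ± 0.0639 (adjusted p = 8.74e-06). DUSP1 was the called gene among 20 MAPK feedback inhibitors tested, a share near the 3.88% of all genes, and 8 of them were lower and 1 higher at an adjusted p under 0.05, against 13.3% and 12.7%. PMAIP1, which encodes the apoptosis protein NOXA, rose by 1.57 and 0.69 and was the called gene among 26 p53 targets, with a difference of -0.88 ± 0.0794 (adjusted p = 8.74e-06). One called gene of 26 is the share of all genes (3.88%). On that list 10 were lower and 2 higher at an adjusted p under 0.05, against 13.3% and 12.7% of all genes.
The DUSP1 promoter holds a full cAMP response element, TGACGTCA, a motif present in 18.8% of the 16 matched MAPK feedback promoters and 1.77% of all promoters. The window lies at chr5:172771283-172771350 on the minus strand, 125 bases before the start.
DUSP1: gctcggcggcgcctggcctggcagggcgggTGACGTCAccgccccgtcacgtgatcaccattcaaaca

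Part of the cholesterol genes had lower values with EESF. Of 25 genes of the sterol pathway, 10 were lower and 1 higher with EESF at an adjusted p under 0.05, and 3 were called lower, against 13.3%, 12.7% and 1.75% of all genes. STARD4, a sterol carrier, was a called gene, with 33.4, 37.8 and 38.4 CPM in Vehicle A, 44.8, 43.2 and 45.6 with WESF, 37.4, 38.0 and 38.2 in Vehicle B and 31.2, 26.8 and 26.9 with EESF. It lay above its vehicle in each WESF library and below it in each EESF library, and the difference was -0.71 ± 0.0924 (adjusted p = 1.09e-04). SQLE, squalene epoxidase, rose by 0.77 with WESF and 0.17 with EESF, a difference of -0.59. Below the fold limit, MSMO1, IDI1, INSIG1 and HMGCS1 had differences of -0.58, -0.56, -0.53 and -0.45, and the LSS difference was 0.24 (adjusted p = 0.0231). FDPS, DHCR7 and CYP51A1 had differences of 0.02, -0.12 and -0.10 with adjusted p-values from 0.256 to 0.898. SCD, the desaturase of fatty acid synthesis, was called as well, with changes of 0.19 with WESF and -0.40 with EESF. It was the called gene of 17 fatty acid synthesis genes tested, against 3.88% of all genes. Of these 17, 4 were higher and 3 lower at an adjusted p under 0.05, against 12.7% and 13.3% of all genes. Their median difference was 0.07, so that list went both ways. The letters TCACNCCAC, close to the sterol element and searched on both strands, were in 1 of 18 list promoters (5.6%), that of SREBF2, which was not called, and in 0.875% of all promoters.

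Among the cytosolic chaperones, 3 genes of the Hsp70 family were called lower with EESF. HSPA8, the constitutive Hsc70 (chr11:123057489-123063230), was at 1297, 1280 and 1227 CPM in Vehicle A and at 1649, 1828 and 1775 with WESF, and at 1261, 1234 and 1197 in Vehicle B and 1072, 1138 and 1161 with EESF. It rose by 0.47 with WESF and fell by 0.13 with EESF, and the difference was -0.60 ± 0.0672 (adjusted p = 4.46e-05). HSPA1A, the inducible Hsp70 (chr6:31815543-31817946), was at 129.1, 134.3 and 127.6 CPM in Vehicle A and 231.1, 288.1 and 260.0 with WESF, and at 132.6, 131.6 and 133.4 in Vehicle B and 132.5, 158.7 and 151.3 with EESF. One EESF library lay within its vehicle, and the HSPA1A difference was -0.84 ± 0.1 (adjusted p = 6.10e-05). HSPA1B, a near-identical copy that may share reads with HSPA1A, had a difference of -0.73. The relatives HSPA4, HSPA4L and HSPH1 had differences of -0.15, -0.25 and -0.05 and adjusted p-values from 0.0703 to 0.521. HSPA8, HSPA1A and HSPA1B were the called genes of 21 cytosolic heat shock proteins tested, of which 5 were lower and 1 higher at an adjusted p under 0.05, and the list median was -0.09. Over all genes 1.75% were called lower, and 13.3% were lower and 12.7% higher at that adjusted p. DNAJB9, a chaperone of the endoplasmic reticulum, rose by 0.69 with WESF and changed by 0.01 with EESF, a difference of -0.68 that was -0.31 against the low doses. It was the called gene of 22 ER chaperones and unfolded protein response genes, a share near the 3.88% of all genes, and 10 of the 22 were lower and 0 higher with EESF at an adjusted p under 0.05.
Windows of the Hsp70 promoters are shown with the letters GAANNTTC of a heat shock element in capitals. Among list promoters 7 of 19 held them (36.8%), against 5.85% of all promoters. HSPA8 lies on the minus strand (chr11:123062149-123062216, 50 bases before the first start RefSeq lists, which lies inside the HSPA8 span given above) and HSPA1A on the plus strand (chr6:31815407-31815474, 106 bases before it).
HSPA8: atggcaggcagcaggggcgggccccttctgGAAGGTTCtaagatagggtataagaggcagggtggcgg
HSPA1A: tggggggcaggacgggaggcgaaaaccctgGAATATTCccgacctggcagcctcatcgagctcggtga

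HIF targets, the genes of the hypoxia response, had a difference below 0 in all 23 tested members, of which 13 passed an adjusted p under 0.05, against 13.3% of all genes lower at that p. Their median changes were 0.38 with WESF and 0.09 with EESF. NDRG1, a stress-induced gene, rose by 1.74 and 1.15, VEGFA, the angiogenic growth factor, by 1.14 and 0.80, and LOX, which crosslinks collagen, by 0.96 and 0.46, with differences of -0.58, -0.34 and -0.50. INSIG2, which also restrains SREBP, was the member past the fold limit (-0.64 ± 0.135, adjusted p = 0.00301). It was at 9.13, 11.5 and 10.2 CPM in Vehicle A and 13.3, 14.6 and 15.7 with WESF, and at 11.5, 11.5 and 10.6 in Vehicle B and 11.1, 9.28 and 10.2 with EESF. The core letters of the hypoxia element, ACGTG on either strand, were in 55.6% of 18 list promoters and 18.7% of all promoters. In INSIG2 they lie on the other strand and read CACGT (chr2:118088346-118088410, plus strand shown, 95 bases before the start).
INSIG2: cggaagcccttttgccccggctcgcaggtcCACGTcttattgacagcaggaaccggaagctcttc
Among 23 plasma membrane amino acid transporters, 8 were lower and 1 higher with EESF at an adjusted p under 0.05, against 13.3% and 12.7% of all genes. SLC38A2, which imports neutral amino acids, was the called gene, a share near the 3.88% of all genes. Its level was 355.2, 369.3 and 404.2 CPM in Vehicle A and 393.5, 402.1 and 391.5 with WESF, against 378.4, 385.7 and 417.6 in Vehicle B and 279.6, 227.9 and 228.7 with EESF, so it fell with EESF and overlapped its vehicle with WESF.

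The 12 genes named for the largest differences above 0 had negative changes with both extracts, less so with EESF, except NPIPA5, which changed by -0.16 with WESF and rose by 0.86 with EESF. SAMD11, a nuclear protein (chr1:923923-944575), was at 132.2, 128.0 and 123.1 CPM in Vehicle A and at 29.9, 28.3 and 29.8 with WESF, and at 132.4, 123.9 and 118.3 in Vehicle B and 68.9, 74.5 and 69.5 with EESF. The EESF libraries lay between the vehicles and WESF with no overlap, and the difference was 1.31 ± 0.075 (adjusted p = 5.56e-08), the smallest p among the named genes. Other differences of the same kind included those of PRRT3, a proline-rich membrane protein (changes of -1.99 and -0.85), TSPAN15, a tetraspanin (-1.39 and -0.43), CD248, an endosialin of stromal cells (-3.05 and -1.87), PADI2, which citrullinates proteins (-2.57 and -1.62), RRAD, a small GTPase (-2.48 and -1.37), ATOH8, a transcription factor (-1.71 and -0.71), and SLC2A6, a sugar transporter (-1.56 and -0.59). VAV3, a guanine nucleotide exchange factor, was at 12.9, 14.3 and 11.95 CPM in Vehicle A, 1.01, 0.928 and 1.00 with WESF, 13.6, 13.8 and 13.1 in Vehicle B and 2.25, 2.00 and 1.71 with EESF. HS3ST1, a heparan sulfate sulfotransferase (-2.44 and -1.43), was called too, but not by DESeq2 (adjusted p = 0.0559), with the replicate block within each batch (0.0704), against the low doses (0.0893), with counts thinned to equal depth (0.0637) or on leaving out any of 4 libraries. Without WESF replicate 1, the CD248 difference was 1.00 with an adjusted p of 0.0517.

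Over the 28 TGF-beta and BMP targets tested, 9 were higher and 6 lower at an adjusted p under 0.05, against 12.7% and 13.3% of all genes, and the median was -0.03, so the list went both ways. ID2, an inhibitor of basic helix-loop-helix factors, was at 24.5, 25.6 and 22.9 CPM in Vehicle A and 5.72, 5.71 and 5.48 with WESF, and at 25.6, 25.02 and 21.4 in Vehicle B and 9.54, 9.31 and 9.23 with EESF, a difference of 0.75 ± 0.113 (adjusted p = 3.10e-04). ID3 fell with WESF by 0.64 and changed by -0.01 with EESF, so its difference was 0.63, and 0.41 after a trend on length and GC content was removed (adjusted p = 0.000723), below the fold limit. ID4 differed by 0.66 (adjusted p = 0.0458), a call that was lost on leaving out any of 10 of the 12 libraries. The ligand BMP4 was called higher, and the ligand BMP6 was called lower at -1.06 (adjusted p = 0.0246), a call lost on leaving out any of 6 libraries, with counts thinned to equal depth and against the low doses. TCF7, a transcription factor of the Wnt pathway, fell from 74.6, 76.7 and 74.4 CPM to 17.9, 16.1 and 18.96 with WESF and from 73.4, 82.3 and 76.6 to 33.9, 30.8 and 28.6 with EESF. It was the called gene of 18 Wnt pathway genes tested, a share near the 3.88% of all genes, and its difference was 0.77 ± 0.0956 (adjusted p = 7.57e-05).

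Part of the DNA replication genes had higher values with EESF, and part of the mitosis genes lower ones. Of 44 DNA replication and G1/S genes, 13 were higher and 1 lower with EESF at an adjusted p under 0.05, and 35 of 44 differences were above 0. Over all genes 12.7% were higher and 13.3% lower at that p and 3.88% were called. MCM3, a subunit of the replicative helicase (chr6:52264014-52284881), was at 132.6, 127.3 and 126.9 CPM in Vehicle A and 45.5, 49.2 and 45.7 with WESF, and at 129.8, 128.8 and 124.2 in Vehicle B and 65.3, 72.1 and 71.6 with EESF. It was the called gene of the list, a share below that of all genes, with a difference of 0.59 ± 0.0699 (adjusted p = 5.73e-05). Of 44 G2/M, spindle and kinetochore genes, 19 were lower and 0 higher with EESF at an adjusted p under 0.05, and 0 passed the fold limit. TOP2A, the topoisomerase of dividing cells and the most abundant of them, rose by 0.37 with WESF and changed by 0.06 with EESF (difference -0.31, adjusted p = 0.00414). The median changes of the mitosis list were 0.27 with WESF and 0.18 with EESF, and those of the replication list -0.44 and -0.28.

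UBTF, which drives transcription of ribosomal RNA genes, was at 103.1, 104.6 and 98.8 CPM in Vehicle A, 62.6, 61.6 and 61.0 with WESF, 104.2, 104.6 and 103.2 in Vehicle B and 88.2, 104.6 and 101.6 with EESF. It fell by 0.73 with WESF and changed by -0.08 with EESF (adjusted p = 0.2), and the difference was 0.64 ± 0.0781 (adjusted p = 6.67e-05). It was the called gene of 44 ribosome biogenesis genes, a share below the 3.88% of all genes. Of these 44, 13 were higher and 5 lower at an adjusted p under 0.05, against 12.7% and 13.3% of all genes. Of 18 clock genes, 6 were higher and 7 lower with EESF at that p, with a median of -0.11, and 3 were called higher and 1 lower, against 2.13% and 1.75%. The output factors DBP and HLF and the repressor CIART were called higher, with differences of 0.84, 0.78 and 0.64. They had negative changes with both extracts, less so with EESF: -1.24, -2.77 and -0.84 with WESF and -0.40, -1.99 and -0.19 with EESF. The nuclear receptor RORA was called lower at -0.87. The HLF call was lost on leaving out any of 6 libraries. RORA rose from 1.83, 2.57 and 2.52 CPM to 5.46, 4.59 and 4.91 with WESF and stood at 2.51, 2.50 and 2.78 in Vehicle B and 3.23, 2.95 and 3.03 with EESF. Among 17 genes of actin and its factor SRF, 10 were higher and 1 lower at an adjusted p under 0.05, against 12.7% and 13.3% of all genes. CNN1, a smooth muscle calponin, was called (0.98, adjusted p = 0.00272), but not against the low doses (0.37, adjusted p = 0.247). The CNN1 vehicles stood at 3.48, 3.29 and 3.14 CPM in batch A and 2.25, 2.50 and 2.56 in batch B, while EESF gave 2.18, 2.64 and 2.74, overlapping Vehicle B, and WESF 1.68, 1.66 and 1.87.

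Mitochondrial-DNA-encoded genes, the OXPHOS set and the ribosomal protein lists had median differences above 0. In the 13 mitochondrial-DNA-encoded genes the median difference was 0.37, with 12 above 0. At an adjusted p under 0.05, 7 were higher and 0 lower, against 12.7% and 13.3% of all genes. Vehicle B, which is subtracted in the difference, exceeded Vehicle A by a median of 0.20 in the same genes. All 13 were higher in Vehicle B at an adjusted p under 0.05 in the fit of the 6 vehicle libraries with the replicate number as a block. MT-ATP8, a subunit of ATP synthase, and MT-ND6, of complex I, were called higher, at 0.86 and 0.75 (adjusted p = 0.000526 and 0.00122), against 2.13% of all genes. MT-ATP8 was at 1114, 1234 and 1115 CPM in Vehicle A and 1044, 743.7 and 889.4 with WESF, and at 1218, 1468 and 1170 in Vehicle B and 1704, 1834 and 1861 with EESF. It lay below its vehicle in each WESF library and above it in each EESF library. The median difference over the 13 genes was 0.21 after a trend on length and GC content was removed and 0.20 against the low doses. Mitochondrial mRNA took 9.02% to 9.21% of the counts in Vehicle A, 6.76% to 8.45% with WESF, 10.19% to 10.45% in Vehicle B and 10.12% to 10.86% with EESF. The share was lower than its vehicle in each WESF library and overlapped its vehicle with EESF. The OXPHOS set, which the study chose on these samples and which is no independent evidence of a direction, had median changes of -0.16 with WESF and -0.02 with EESF. Of its 122 genes tested, 95 had differences above 0. At an adjusted p under 0.05, 20 of the 122 were higher and 2 lower, against 12.7% and 13.3% of all genes. The 40 nuclear complex I genes of the set had 2 higher and 0 lower at an adjusted p under 0.05, and 85 cytosolic ribosomal proteins also 2 and 0, shares below those of all genes. Nuclear genes of ATP synthase (15 tested), complex III (10) and complex IV (16) had 5, 1 and 0 higher, with 0 lower in each. Of 78 mitochondrial ribosomal proteins, 18 were higher and 2 lower, against 12.7% and 13.3% of all genes. MRPL1, MRPL57 and MRPL23 were called at 0.63, 0.63 and 0.62, a share like the 3.88% of all genes. The MRPL23 call was lost after a trend on length and GC content was removed (0.32, adjusted p = 0.18) and against the low doses (0.37, adjusted p = 0.0962). On the translation side, 20 cytosolic aminoacyl-tRNA synthetases had 2 higher and 4 lower, with a median of -0.10, and 7 complex II genes had 1 and 0, with a median of -0.01. Of the genes that the study also took to qPCR, NDUFS7, a complex I subunit, had a difference of 0.31 (adjusted p = 0.0513), NDUFS5, another, 0.30 (adjusted p = 0.0761), and COX5B, of complex IV, 0.29 ± 0.187 (adjusted p = 0.27). COX5B was at 27.24, 23.59 and 22.62 CPM in Vehicle A and 22.86, 20.61 and 22.09 with WESF, and at 25.09, 22.52 and 18.15 in Vehicle B and 18, 27.13 and 26.73 with EESF. The responses overlapped through EESF replicate 1, without which the difference was 0.45 (adjusted p = 0.0189), and with the trend on length and GC content removed it was 0.10 (adjusted p = 0.619). With the replicate block over the vehicles, NDUFS7 and NDUFS5 passed (adjusted p = 0.0118 and 0.00792), whereas with the trend removed their differences were -0.01 and 0.12. Against the low doses the NDUFS7 difference was 0.13 (adjusted p = 0.345) and that of NDUFS5 0.20 (adjusted p = 0.135).

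**Figure D3:**
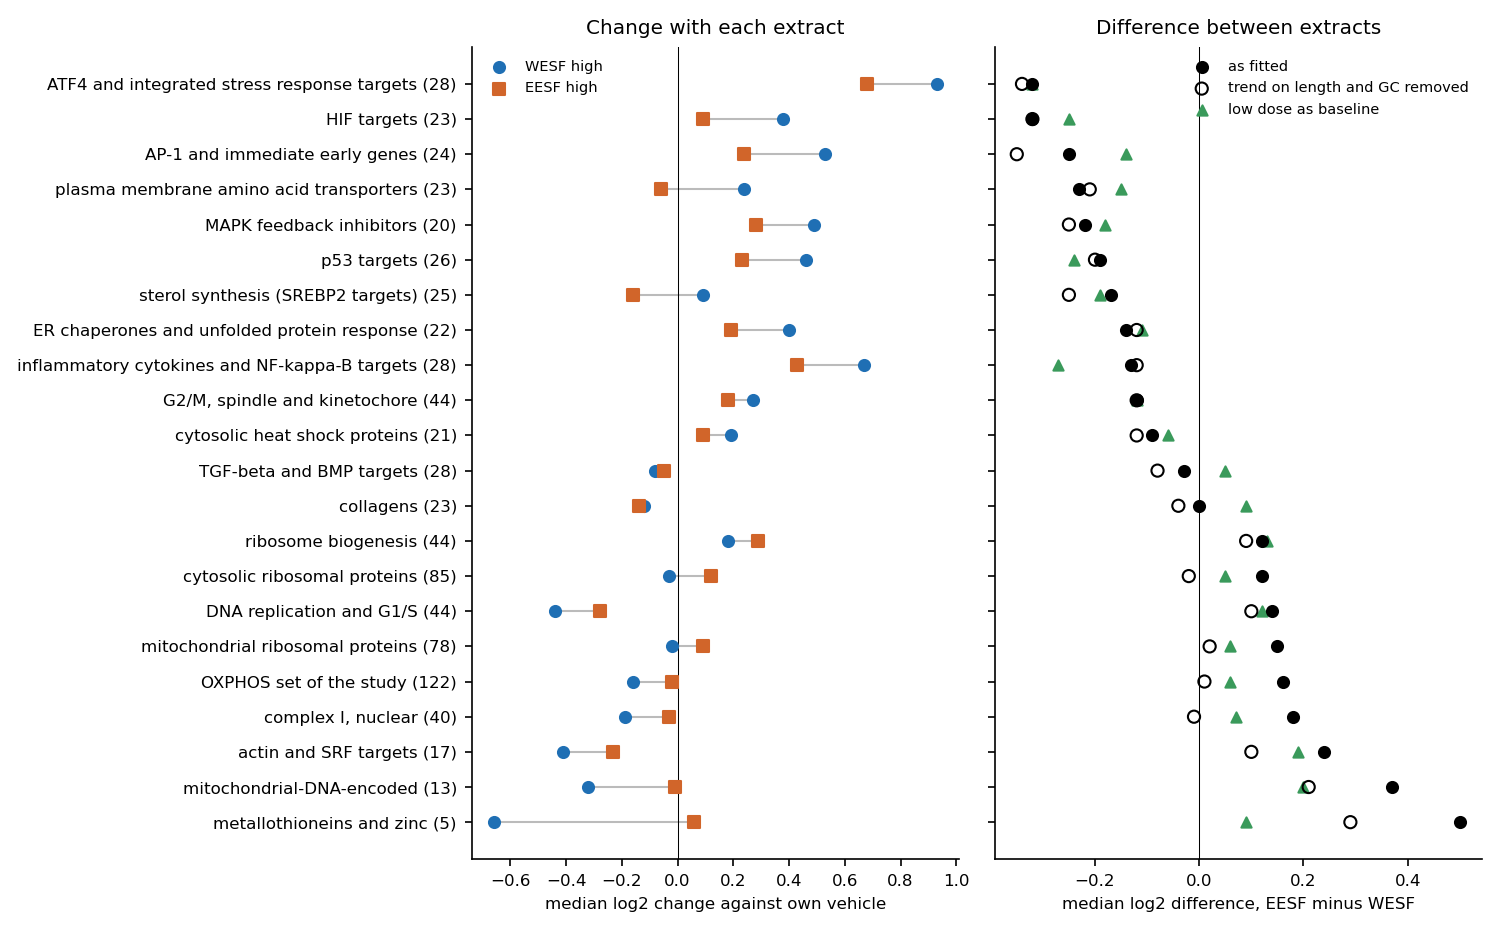
Left, median log2 change of each gene list with WESF (circles) and EESF (squares), with the number of genes tested in brackets. Right, the median difference between the extracts as fitted (filled circles), after a trend on transcript length and GC content was removed (open circles) and against the low doses as baseline (triangles). ATF4 targets keep -0.32, -0.34 and -0.32, while complex I goes from 0.18 to -0.01 and 0.07.

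Short and GC-rich transcripts had higher differences than long ones. Genes called higher with EESF had a median transcript length of 2334 bases and a GC content of 56.3%, those called lower 6140 bases and 43.3%, and all genes tested 3367 bases and 48.3%. In the decile of genes with the shortest transcripts the median difference was 0.19, and 48 genes were called higher and 9 lower. In the decile with the longest the median was -0.21, and 6 were called higher and 84 lower. As a description across genes, which are not independent, Spearman's rank correlation with length was -0.38 for the difference, -0.29 for the EESF change, -0.02 for the WESF change and 0.15 for Vehicle B against A. The lower doses of EESF had correlations of -0.49 (low) and -0.48 (medium), and those of WESF -0.06 and -0.24. After a loess trend on length and GC content was removed, 330 genes were called, 188 higher and 142 lower, of which 255 were among the 519. The medians of the OXPHOS set, complex I, cytosolic ribosomal proteins and mitochondrial ribosomal proteins went to 0.01, -0.01, -0.02 and 0.02, while those of the HIF, ATF4, AP-1 and sterol lists went to -0.32, -0.34, -0.35 and -0.25. The part of transcript length and GC content in the results was not tested further.

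**Figure D4:**
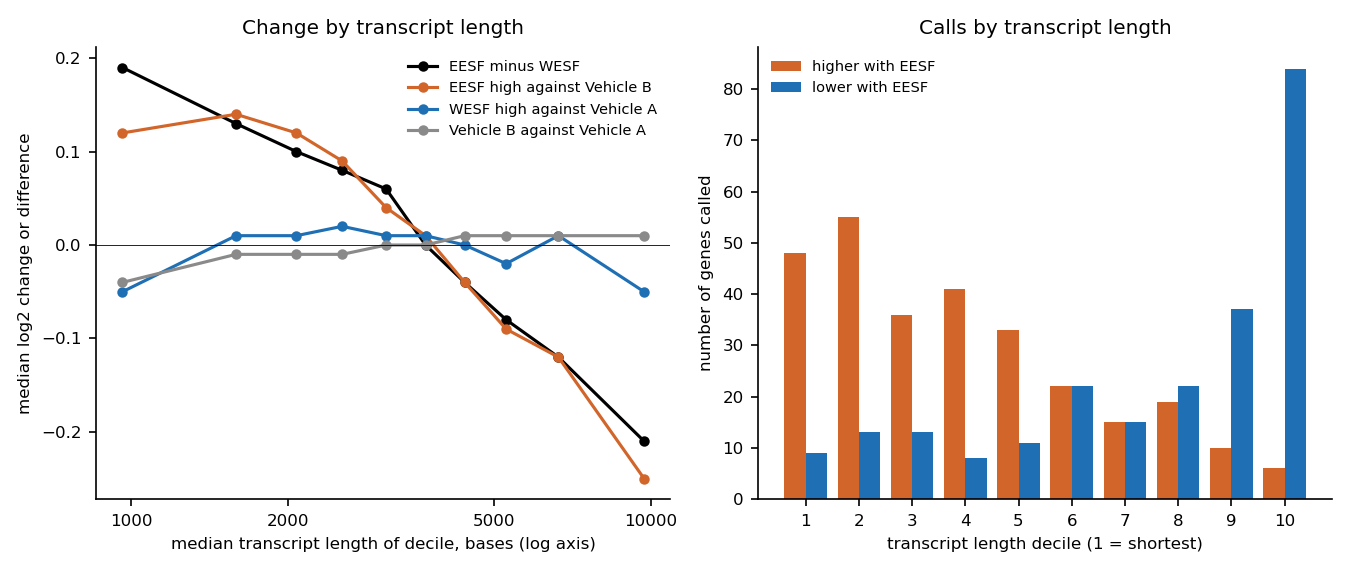
Left, median log2 change or difference in deciles of the genes by transcript length (x axis, log scale). Right, number of genes called in each decile. The difference falls from 0.19 to -0.21 from the shortest to the longest decile, along with the EESF change, and the calls pass from 48 higher and 9 lower to 6 higher and 84 lower.

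The lower doses, fitted with all 24 libraries, showed 2 kinds of pattern. They share the vehicles with the high dose, so the values are a description. At 100 µg/mL of WESF and 62 µg/mL of EESF, 4 of 13516 genes (0.0296%) were called for the difference between extracts, and at 20 and 12.4 µg/mL 0 (0.00%) were called by edgeR, while 1438 had an unadjusted p under 0.05. Against its own vehicle the low dose of EESF gave 38 calls (0.281%) and 1077 genes at an adjusted p under 0.05, and that of WESF gave 0 (0.00%) and 0 by edgeR, with 580 at an unadjusted p under 0.05. For CXCL8 the change with WESF was -0.02, 0.72 and 4.50 at the low, medium and high dose, and with EESF -0.05, 0.57 and 3.02. PTGS2, SAMD11 and STARD4 also diverged at the high dose: PTGS2 changed by -0.02, 0.06 and 2.08 with WESF and by -0.04, -0.02 and 1.08 with EESF. KLF6 behaved otherwise, with -0.07, -0.01 and 0.52 for WESF and -0.61, -0.57 and -0.33 for EESF, so it lay below Vehicle B at each EESF dose. CYP1A1, the xenobiotic oxygenase induced by the aryl hydrocarbon receptor, changed by 0.76, 0.72 and 0.93 with EESF and by -0.01, 0.08 and -0.12 with WESF, and Vehicle B was lower than Vehicle A by 0.45. Its level was low, at means of 1.15 CPM in Vehicle A, 1.05 with high WESF, 0.845 in Vehicle B and 1.61 with high EESF. In the fit of 12 libraries it was the called gene of 11 receptor targets tested, against 3.88% of all genes. Of these 11, 2 were higher and 2 lower at an adjusted p under 0.05, against 12.7% and 13.3% of all genes. EGR1 changed by -1.13, -1.04 and -1.34 with EESF. FANCB changed by -0.48, -0.42 and -0.49 with EESF, and DNAJB9 by -0.38, -0.32 and 0.01. For such genes, an effect already present at the lowest EESF dose and a difference between the vehicle samples and the EESF cultures cannot be told apart.

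**Figure D5:**
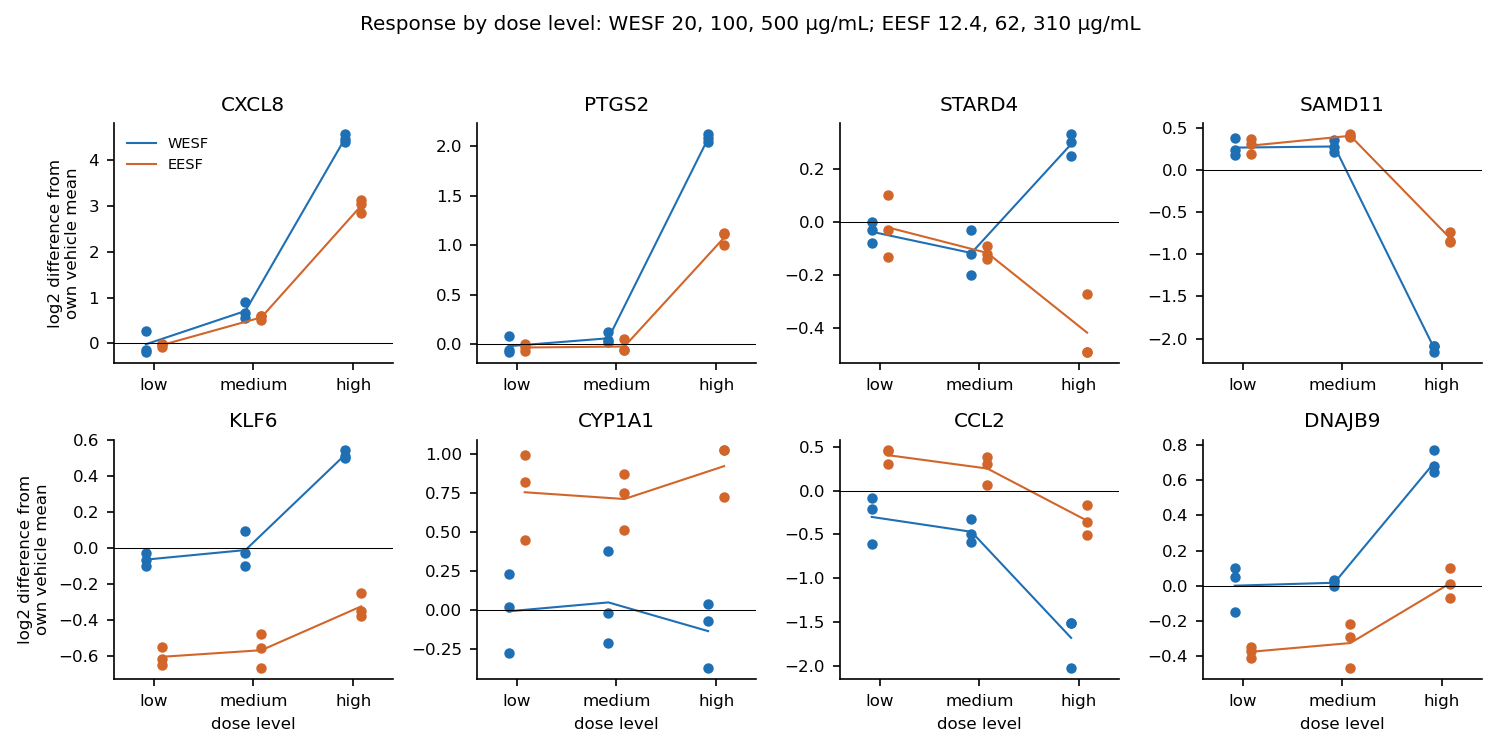
Log2 difference of each library from the mean of its own vehicle for 8 genes, by dose level (points, with lines through the means). CXCL8, PTGS2, STARD4 and SAMD11 diverge at the high dose, whereas KLF6 and CYP1A1 with EESF lie away from their vehicle at all 3 doses.

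With the low dose of each extract as its baseline, 255 genes were called, 136 higher and 119 lower, of which 169 were among the 519. The differences of CXCL8, PTGS2, DDIT4 and SAMD11 were then -1.46, -0.99, -1.04 and 1.28, and that of CYP1A1 was 0.28 (adjusted p = 0.563). The differences of FANCB, GUCY1A2, HSPA1A and INSIG2 shrank to -0.56, -0.58, -0.52 and -0.39, still at an adjusted p under 0.05. Those of ID4 and BMP6 went to 0.21 and -0.48 and were no longer called (adjusted p = 0.648 and 0.306). The median of the ATF4 list stayed at -0.32 and that of the metallothioneins, small zinc-binding proteins, went from 0.50 to 0.09. The metallothionein median was 0.16 against the vehicles in the fit of 24 libraries and 0.29 with the trend on length and GC content removed. MT1E and MT1X, the called metallothioneins, had differences of 0.78 and 0.73 against the vehicles and 0.25 and 0.49 against the low dose (adjusted p = 0.467 and 0.116).

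Of 6 genes named for the largest changes under either extract, CXCL8, VAV3 and HTR2A were called as different and ITGB8, KRTAP2-3 and TXNIP were not. HTR2A, a serotonin receptor, changed by -2.88 with EESF and fell further with WESF (difference 0.91, adjusted p = 0.0407), a call lost on leaving out any of 7 of the 12 libraries, with counts thinned to equal depth (adjusted p = 0.0978) and with the replicate block within each batch (adjusted p = 0.0565). ITGB8, an integrin that activates TGF-beta, fell from 44.5, 48.1 and 56.0 CPM to 4.75, 4.79 and 5.48 with WESF and from 45.8, 49.5 and 55.2 to 5.37, 5.56 and 5.14 with EESF. The treated groups overlap, and the difference was 0.08 ± 0.156 (adjusted p = 0.751). KRTAP2-3, a keratin-associated protein gene of a family that may share reads, rose by 3.75 with WESF, and its difference was 0.05 ± 0.193 (adjusted p = 0.879). TXNIP, a glucose-induced arrestin, passed an adjusted p under 0.05 but not the fold limit, with changes of 5.13 and 4.82 and a difference of -0.32. At the medium dose TXNIP was one of the 4 called genes (-0.83, adjusted p = 0.000619), and against the low doses its difference at the high dose was -0.09 (adjusted p = 0.531).

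No gene of the 3 lists of matrix and interferon genes was called, against 3.88% of all genes. Of 23 collagens 1 was higher and 3 lower at an adjusted p under 0.05, and COL1A1, the most abundant, changed by -0.38 with WESF and -0.16 with EESF (difference 0.21, adjusted p = 0.0145). Of 25 matrix proteases and inhibitors 3 were higher and 2 lower, and of 30 interferon-stimulated genes 2 were higher and 1 lower. These shares at an adjusted p under 0.05 compare with 26.0% of all genes. Of the interferon-stimulated genes, 11 were called down with each extract, against 13.2% of all genes with WESF and 9.35% with EESF. FN1, fibronectin, fell with EESF by 0.44 and changed by -0.02 with WESF (difference -0.41, adjusted p = 0.00558), and its difference was -0.15 (adjusted p = 0.222) when the low doses served as the baseline.

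Further large differences fell outside these groups. DEPP1, a FOXO target, rose from 5.17, 5.03 and 5.51 CPM to between 15.3 and 16.3 in the WESF libraries and was at 5.28, 4.34 and 5.07 in Vehicle B and 6.63, 6.77 and 6.86 with EESF (difference -1.14 ± 0.126, adjusted p = 4.44e-05). IKZF2, the transcription factor Helios, was at 7.85, 8.58 and 8.73 CPM in Vehicle A and 13.1, 12.8 and 13.5 with WESF, but at 8.55, 10.01 and 8.85 in Vehicle B and 7.12, 6.77 and 5.74 with EESF. IKZF2 and FANCB, of the Fanconi anaemia core complex, rose with WESF and fell with EESF, by 0.65 and -0.48 and by 0.57 and -0.49. GUCY1A2, a subunit of the nitric oxide receptor, was among the 26 genes with a negative change with both extracts and a larger one with EESF. Its changes were -1.06 and -2.11. PDK4, which inhibits pyruvate dehydrogenase, rose by 2.85 and 1.68 (difference -1.17, adjusted p = 0.0382), a call lost on leaving out any of 5 libraries. The PDK4 call was also lost with the replicate block within each batch (adjusted p = 0.0808) and across batches (adjusted p = 0.0539). The differences of RGPD5, NPIPA5, SMIM11, ADAT3 and RSC1A1, which have near-identical copies or share exons with other genes, and of the readthrough gene TVP23C-CDRT4 are uncertain.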

How the data were processed

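RNA-seq of SW1783 cells was analysed from the expected counts per gene that the authors deposited. Per the labels and methods, reads were trimmed with Trim Galore 0.6.6, aligned with STAR 2.7.9a and counted with RSEM 1.3.3 on GRCh38; the strand setting is not given in the sources used here. RSEM splits shared reads between genes, and 10.9% of values are not whole. Counts were rounded, and protein-coding genes of GENCODE passing filterByExpr were fitted over the 12 libraries with edgeR 4.0.16 (TMM, quasi-likelihood, 2-sided) in R 4.3.3, with no covariate. Adjusted p is Benjamini-Hochberg over all 13376 genes, and a call needs an adjusted p under 0.05 and a fold beyond 1.5. CPM values use TMM-scaled library sizes. DESeq2 1.42.0, the study's tool, was an alternative. Genes, the 57 lists and their members were chosen with earlier results of these data known. Named genes were the 12 largest differences per direction among calls with at least 100 mean normalized counts and no overlap of responses, up to 4 called members per list, the most abundant member of some lists without calls, genes called in opposite directions, and genes named earlier for size or qPCR; others of a list (such as IL6 or NDRG1) were added after their values were seen. Replicates of a group differed beyond sampling noise, whereas same-numbered vehicles of the 2 batches did not once the batch difference of each gene was removed; the fit took the 6 vehicle libraries as separate, and fits with their number as a block were added after seeing the data. On simulated data for this difference, over 13271 genes, 81.8% of genes changed by 1 on the log2 scale and 97% of those changed by 2 were recovered. Promoter windows are RefSeq's, on GRCh38.p14. Some genes of the lists are counted but not reported by name here.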

Additional observations from a re-analysis of the deposited data

Results flagged for a closer look

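In 4 genes each extract changed expression past the call limits, but in opposite directions. ZNF460, a zinc finger gene, had a difference of -1.52. The unnamed gene ENSG00000258653 had 1.54 and CACNA1H, a calcium channel subunit, -2.33, and both have few counts and vehicles that differ by -0.84 and 1.65. The unnamed gene ENSG00000267022 had -6.08, with 2 of 3 Vehicle A libraries and 1 EESF library at 0 and a fitted vehicle difference of 2.96, so its size depends on the prior count. Against the low doses the CACNA1H difference was -1.04 (adjusted p = 0.256) and that of ENSG00000258653 was 0.49 (adjusted p = 0.307).

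Long non-coding RNAs lie outside the protein-coding comparison. Tested with all genes of the table, 95 were called higher and 43 lower with EESF, of 2011 (6.86%), against 685 of 16653 genes of all types (4.11%). Examples, chosen after their values were seen, are APPAT at 1.75, UCA1 at 0.88, EBLN3P at -0.60 and ALMS1-IT1 at -1.57. Where such a gene overlaps another on either strand, shared reads cannot be told apart.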

How the results depend on the processing

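The difference between extracts gave 519 calls, and with one choice changed 431 by DESeq2's test (416 shared), 518 with DESeq2's size factors, 531 without a filter, 685 over all gene types, 480 with counts thinned to equal depth and 550 with 24 libraries. Replicate numbers did not pair the samples within a batch or the treated samples, with correlations of same-numbered deviations in abundant genes of -0.58 to 0.12, but paired the vehicles across batches (0.55 to 0.85), though over all genes, where counting error weighs more, these were -0.00 to 0.13. The replicate block gave 437 calls within each batch (429 shared), 477 across batches and, chosen after seeing the data, 541 over the vehicles (513 shared), where ID4 was lost (adjusted p = 0.053), and 17 between the vehicles fitted alone. The low dose as baseline gave 255 (136 higher, 119 lower) and removal of the length and GC trend 330 (188 higher, 142 lower). Leaving out 1 library gave 385 to 729 calls (209 to 374 higher, 157 to 355 lower), the extremes without EESF replicates 3 and 1. DESeq2 called 1 gene between the vehicles. KRTAP2-3 changed sign to -0.27 with the low dose, -0.16 without the trend, -0.03 without WESF replicate 2 and -0.05 without EESF replicate 3 (leaving out 1 library gave -0.05 to 0.11), ITGB8 to -0.02 without Vehicle A replicate 3 (range -0.02 to 0.15), and NDUFS7 and RPS2 to -0.01 and -0.05 without the trend, and the cause was not tested. Of 78 named called genes, 56 kept their sign and an adjusted p under 0.05 in every setting that gave a value (23, or 22 for ENSG00000267022). Calls of HTR2A, ID4, HLF, FOSB, BMP6 and RSC1A1 were lost on leaving out any of 6 or more libraries, EGR1 of 2 and CYP1A1 of 1 (Vehicle B replicate 1, 0.87, adjusted p = 0.0526). The block within each batch also ended the calls of PDK4 (adjusted p = 0.0808), EGR1, CYP1A1, HTR2A, HS3ST1, ID4 and TVP23C-CDRT4. With counts thinned to equal depth 404 of the 519 calls remained, and HS3ST1, NES, FOSB, HTR2A, BMP6, ID4 and TVP23C-CDRT4 were lost. Extract and batch cannot be told apart, the high doses differ, and 3 libraries per group limit precision.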
